A study of Danio rerio with 14 samples.

Results

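Mitochondria make only a small set of their own proteins and take up the rest from the cytosol. Precursors enter through the TOM complex of the outer membrane, and are then passed to the SAM complex, which inserts beta barrel proteins, or to the TIM23 or TIM22 complexes of the inner membrane, with small TIM chaperones in the space between. The transcriptional coactivator encoded by ppargc1a promotes the making of mitochondria in muscle, tfam and tfb2m serve transcription of mitochondrial DNA, and fusion and fission GTPases set the shape of the organelle. Skeletal muscle, and extraocular muscle in particular, is rich in mitochondria.

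The genes described here were those whose deposited symbol begins with timm or tomm and a number, or with samm50, ppargc1, tfam, tfb1m or tfb2m, opa1, mfn1 or mfn2, dnm1l, fis1, mff, pink1 or phb. The rule uses symbols only, although it was written with earlier results of these data known. It picked 38 of the 31014 features in the tables, with 37 different symbols, on 20 chromosomes of the zebrafish assembly GRCz10. By role, 9 carry tomm symbols, while 2 belong to SAM, 6 to TIM23, 1 to TIM22 and 6 to the small TIM chaperones. Another 5 are biogenesis regulators, 3 are fusion and 2 fission genes, and 4 are pink1 and the prohibitins.

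RNA was measured in the lateral rectus (LR), an extraocular muscle that abducts the eye, of sexually mature adult zebrafish. CON was uninjured LR (4 libraries, 0 h), and H9 and H18 were what remained of injured LR at 9 and 18 h post injury (hpi), after surgical removal of part of the muscle (5 libraries each). In all 14 libraries the labelled genotype was actin:GFP, a transgene in which an actin promoter marks muscle with a fluorescent protein, so CON carries it too. Each library was made from pooled RNA of muscle cut from sections of the head with a laser, and ribosomal RNA was depleted.

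The values are FPKM, fragments scaled to transcript length and, in the authors' CuffDiff run, to the upper quartile of the counts of a library. That run gave 1 value per gene and group. These pooled group values have no SD and no n. No difference below was set against the spread between libraries, no test was run, and the depth of each library was not used here. Log2 differences are of FPKM plus 0.1, which understates the difference of genes with low FPKM, whereas fold values are direct ratios of the group FPKM. Where 3 FPKM values are listed they are those of CON, H9 and H18 in that order, and paired log2 differences are those of H9 and H18 from CON. A gene counts as higher or lower when its log2 difference passes 1.5-fold. Of the 38 features, 37 averaged at least 1 FPKM over the 3 groups and are counted. Only a timm23 feature on chromosome 13 did not, and timm10b passed mainly through its value in H9.

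Markers of the labelled tissue were present and differed widely between the groups. The summed FPKM of 21 muscle fibre markers was 20052 in CON, 2564 at 9 hpi and 1367 at 18 hpi, with only mylpfb listed at 0 (in CON and H18). The summed FPKM of 20 leukocyte markers, none listed at 0, was 331 in CON, 519 at 9 hpi and 428 at 18 hpi. Of the 20, 17 were past 1.5-fold higher at each time (85%). Among all named features averaging at least 1 FPKM, 35.0% were higher in H9 and 32.8% in H18. The 17 were not the same genes at both times, as lyz lay within 1.5-fold in H9 and cybb in H18. The marker il1b averaged at least 1 FPKM only through its value in H9. The antigen presentation genes cd74a and cd74b, which were lower at both times, held most of the leukocyte sum in CON. The other 18 leukocyte markers summed to 68.5, 374 and 340 FPKM. Erythrocyte markers (6 genes) summed to 583, 731 and 407 FPKM. Markers of retina, epidermis, endothelium and glia (17 genes, opn1mw1 and gnat2 at 0 in at least 1 group) summed to 457, 305 and 297 FPKM. Of these, krt8 alone was at 167, 175 and 227 FPKM, and the other 16 summed to 290, 129 and 69.5 FPKM. The glial markers mbpa, mpz and plp1b summed to 182, 53.9 and 32.2 FPKM, whereas sox10, listed with them, was at 3.79, 4.01 and 3.04 FPKM. The 4 endothelial markers summed to 22.7, 35.3 and 17.2 FPKM. In bulk tissue, fewer cells of a type and less RNA per cell cannot be told apart. The part of these marker differences in the results below was not tested.

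At 9 hpi, 7 of the 37 genes were higher than in CON, 12 were lower and 18 lay within 1.5-fold. The genes that were lower included the coactivator ppargc1a, the mitophagy kinase gene pink1, the fusion gene mfn2 and the fission gene dnm1l, and also 5 import genes (tomm20b, tomm5, samm50l, timm17b and timm23). The 7 that were higher carry symbols of the import machinery or of a chaperone that serves it. Of all 13419 named features that averaged at least 1 FPKM, 35.0% were higher in H9 and 31.4% lower, against 18.9% and 32.4% of the genes described here. The share that was lower was thus close to that of all features, and the share that was higher was below it. The median log2 difference was -0.27, beside 0.09 over all features.

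At 18 hpi, 3 genes were higher than in CON (tomm20a, tomm40l and timm44), 19 were lower and 15 lay within 1.5-fold. Among all features 32.8% were higher in H18 and 34.7% lower, against 8.11% and 51.4% of these genes. The median log2 difference was -0.68, beside -0.01 over all features. Both comparisons share the CON libraries, so they are not independent of each other.

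Between the injured groups, timm9 was the only gene that was higher in H18 than in H9, whereas 11 were lower and 25 lay within 1.5-fold. Among all features 15.5% were higher and 24.6% lower, against 2.7% and 29.7% of these genes. The median log2 difference of all features was itself -0.15 in this comparison, and that of these genes was -0.29. Relative to the shift of all features, 3 genes were higher and 9 lower, and the median was -0.15. The shares of all features after that shift are not given here, and those above are without it.

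**Figure D1:**
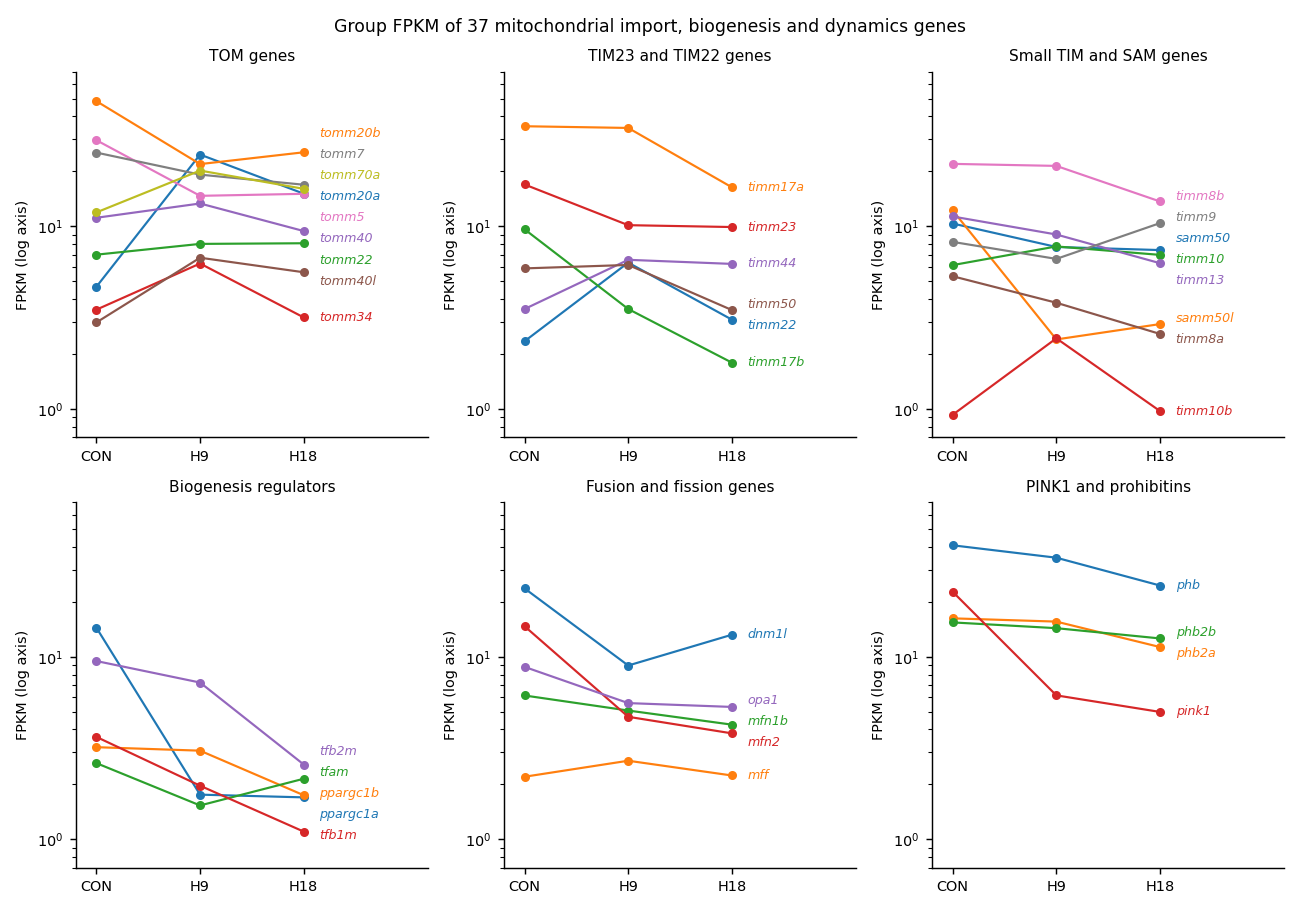
Group FPKM (log axis) of the 37 counted genes in CON, H9 and H18, in panels by role. Each point is the authors' pooled value of a group and lines join the points of a gene. The line of ppargc1a drops from 14.4 FPKM in CON to 1.76 in H9, that of tomm20a climbs from 4.67 to 24.7, and the prohibitin lines stay nearly level at 9 hpi.

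None of the 5 biogenesis regulators was higher in an injured group than in CON. Of the 5, 3 were lower in H9 and 4 in H18 (60% and 80%, beside 31.4% and 34.7% of all features). The summed FPKM of the 5 was 33.4 in CON, 15.6 at 9 hpi and 9.27 at 18 hpi. Most of the sum in CON came from ppargc1a (14.4 FPKM) and tfb2m (9.48 FPKM). The coactivator gene ppargc1a (chr7:70128164-70170943) was at 14.4 FPKM in CON, 1.76 at 9 hpi and 1.70 at 18 hpi. Its FPKM in CON was 8.20 times that in H9 and 8.48 times that in H18, and its log2 differences of -2.97 and -3.01 were the lowest among the 37 genes at both times. Only 4.17% of all features had a lower log2 difference in H9, and 5.82% in H18. The values of H9 and H18 lay close together, at a log2 difference of -0.05.

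The related coactivator ppargc1b (chr14:24637806-24704339) was at 3.20, 3.06 and 1.75 FPKM. It lay within 1.5-fold of CON in H9 (log2 difference -0.06) and was lower in H18 (-0.84). The share of ppargc1a in the summed FPKM of this pair was 81.8% in CON, 36.5% at 9 hpi and 49.3% at 18 hpi, so ppargc1b was the more abundant of the pair in both injured groups, in H18 only narrowly.

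The genes for mitochondrial transcription passed the threshold at different times. The gene tfam, whose product packages mitochondrial DNA and starts its transcription, was at 2.62 FPKM in CON, 1.54 at 9 hpi and 2.15 at 18 hpi. It was lower only in H9 (log2 difference -0.73), and with a pseudocount of 1 FPKM that difference was -0.51, within 1.5-fold. Lower at 18 hpi rather than 9 hpi was tfb2m, the partner of the mitochondrial RNA polymerase, with 9.48, 7.23 and 2.57 FPKM and log2 differences from CON of -0.39 and -1.84. Its log2 difference of H18 from H9, -1.46, was the lowest of the 37 genes. The methyltransferase gene tfb1m, which modifies the ribosomal RNA of mitochondria, was at 3.64, 1.97 and 1.104 FPKM, with log2 differences of -0.85 and -1.64. Its span overlaps that of LOC101886267, whose reads may be shared with it.

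Further genes of mitochondrial biogenesis and DNA maintenance, from a list of 30 symbols, lay in both directions. Of the 23 features found, 17 averaged at least 1 FPKM, of which 5 were higher and 6 lower in H9, and 4 higher and 5 lower in H18. In H9 these shares were 29.4% and 35.3%, beside 35.0% and 31.4% of all features. In H18 they were 23.5% and 29.4%, beside 32.8% and 34.7%. Among those lower, mterf1 (1.88, 0.369 and 1.001 FPKM) averaged at least 1 FPKM only through its value in CON. The PGC1-related coactivator pprc1 was at 0.521 FPKM in CON, 14 at 9 hpi and 5.01 at 18 hpi, lowest in CON, where ppargc1a was highest. Conversely, esrrga, which encodes an estrogen-related receptor that works with such coactivators, was at 27.4, 1.94 and 1.18 FPKM. The matrix protease gene lonp1 stood at 3.08, 9.98 and 8.43 FPKM. A feature named esrrb was at 4.15 FPKM in CON, was listed at 0 in H9 and was at 3.21 FPKM in H18, and is counted among those lower in H9. A further feature with the same symbol was highest in H9, at 0.190, 0.746 and 0.0679 FPKM, and averaged too little to be counted.

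**Figure D2:**
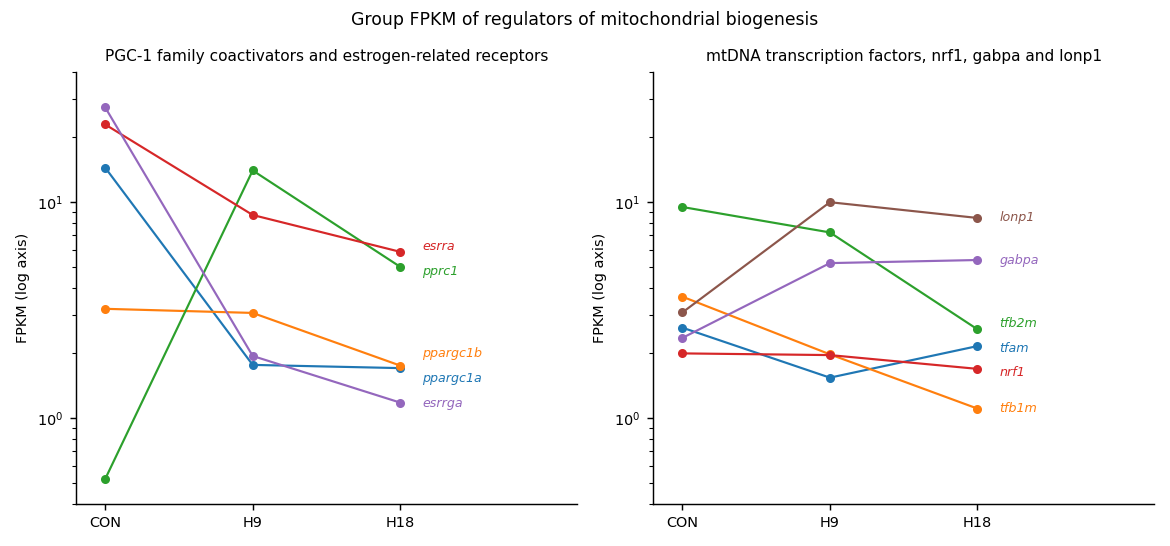
Group FPKM (log axis) of regulators of mitochondrial biogenesis in CON, H9 and H18, with coactivators and estrogen-related receptors on the left and transcription factors and lonp1 on the right. The lines of pprc1 and ppargc1a cross between CON and H9. The genes esrra (22.9, 8.71 and 5.88 FPKM), nrf1 (1.99, 1.95 and 1.69 FPKM) and gabpa (2.35, 5.21 and 5.39 FPKM) were added after their values were seen.

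Of the 9 genes with tomm symbols, 4 were higher and 2 lower in H9, and 2 were higher and 2 lower in H18. In H9 these shares were 44.4% and 22.2%, beside 35.0% and 31.4% of all features. In H18 they were 22.2% and 22.2%, beside 32.8% and 34.7%. The 4 that were higher in H9 include tomm34, the gene of a cytosolic cochaperone, and tomm20a, a feature of uncertain identity. The summed FPKM of all 9 was 145 in CON, 135 at 9 hpi and 115 at 18 hpi, within 1.5-fold of CON. The TOM channel gene tomm40 was at 11.1, 13.3 and 9.43 FPKM and the central receptor gene tomm22 at 7.002, 8.02 and 8.09 FPKM. Both lay within 1.5-fold of CON. The span of tomm40 overlaps that of zgc:194590, which was at 2.38, 0.518 and 3.04 FPKM. The receptor gene tomm70a, whose product takes in precursors of carrier proteins, was higher in H9 only, at 11.9, 20.2 and 16.1 FPKM (log2 differences 0.76 and 0.43).

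The largest difference upward in both comparisons with CON was that of a feature named tomm20a (chr13:49253724-49294707), at 4.67 FPKM in CON, 24.7 at 9 hpi and 15.1 at 18 hpi. Its log2 differences were 2.38 and 1.67. Its deposited description, however, is that of AT rich interactive domain 4B, and RefSeq lists arid4b as a synonym under the same identifier. Whether the feature counts transcripts of the import receptor, of the chromatin gene or of both cannot be told apart here. Without it, 6 genes were higher in H9 and 2 in H18.

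The Tom20 receptor gene tomm20b (chr11:44375484-44385282) was at 48.5, 21.9 and 25.5 FPKM, and was the most abundant of all 38 features in CON. It was lower in both injured groups (log2 differences -1.14 and -0.93). The sum of both features was 53.2, 46.7 and 40.6 FPKM, of which tomm20a held 8.79% in CON, 53.0% at 9 hpi and 37.2% at 18 hpi. As tomm20a may count transcripts of arid4b, neither the sum nor these shares can be assigned to Tom20 genes alone.

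Among the other tomm genes, tomm5, which encodes a small subunit that borders the channel, was lower at both times, at 29.6, 14.7 and 15.1 FPKM. Its span overlaps that of grhpra. The tomm40-like gene tomm40l was higher at both times, at 2.98, 6.74 and 5.61 FPKM (log2 differences 1.15 and 0.89), and overlaps lipea and LOC101886676. Higher in H9 only was tomm34, the gene of a cytosolic cochaperone of import, at 3.50, 6.26 and 3.17 FPKM. The small subunit gene tomm7 lay just inside the threshold in H18, at 25.4, 19.2 and 16.9 FPKM (log2 difference -0.58).

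Both SAM genes encode the protein that inserts beta barrels, and differed from each other in size of response. The feature samm50 was at 10.4, 7.72 and 7.42 FPKM, within 1.5-fold of CON. Its relative samm50l (chr4:9010943-9024183) was at 12.2 FPKM in CON, 2.41 at 9 hpi and 2.92 at 18 hpi, with log2 differences of -2.30 and -2.03. The share of samm50l in their sum was 54.1% in CON, 23.8% at 9 hpi and 28.2% at 18 hpi.

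**Figure D3:**
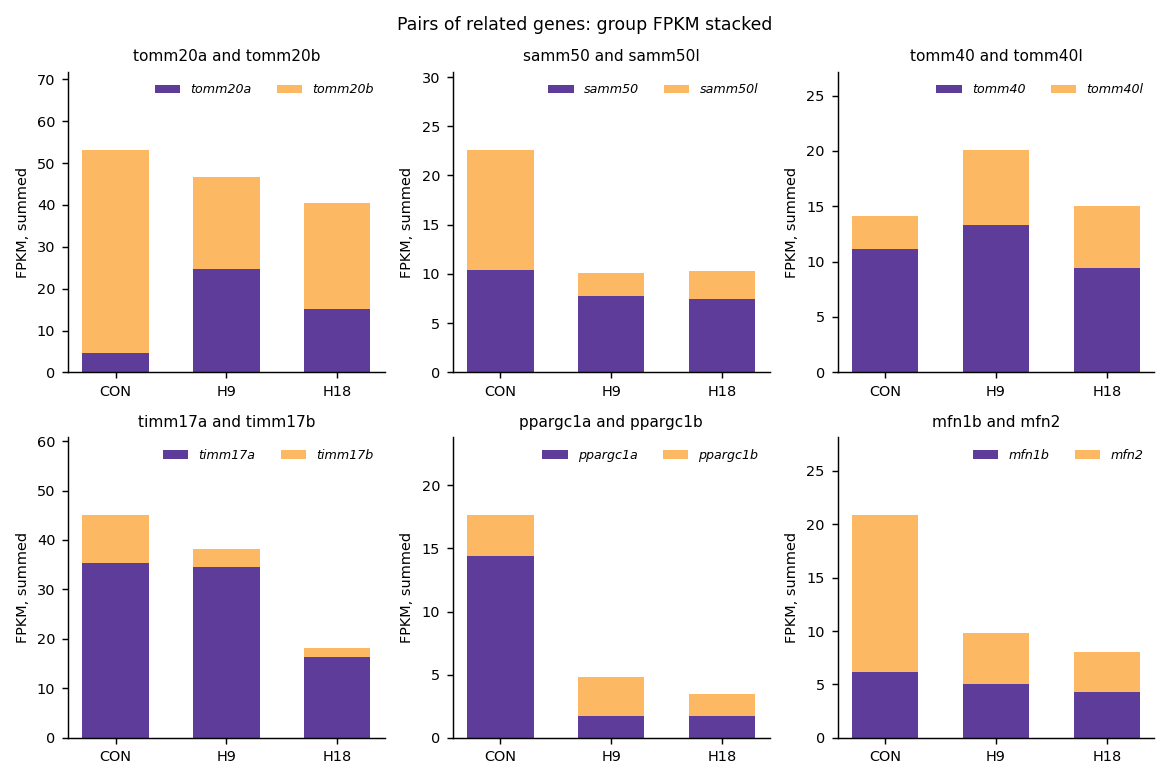
Stacked bars of group FPKM for 6 pairs of related genes in CON, H9 and H18, from 0. The tomm20 sum is 53.2 FPKM in CON and 40.6 at 18 hpi, and the ppargc1 sum 17.6 and 3.45 FPKM. In these and the samm50, timm17 and mitofusin pairs the sum in either injured group is under that in CON. The tomm20a feature may count transcripts of arid4b.

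The TIM23 complex takes precursors with a presequence across the inner membrane. Of its 5 counted genes, 1 was higher and 2 lower in H9 (20% and 40%, beside 35.0% and 31.4% of all features). In H18, 1 was higher and 4 were lower (20% and 80%, beside 32.8% and 34.7%). The channel partner timm17a (chr11:24662647-24668648) was among those lower at 18 hpi but not at 9 hpi, at 35.3 FPKM in CON, 34.6 at 9 hpi and 16.4 at 18 hpi (log2 differences -0.03 and -1.11). Its paralog timm17b was lower at both times, at 9.64, 3.53 and 1.80 FPKM (log2 differences -1.42 and -2.36). Its FPKM in CON was 5.37 times that in H18, and timm17b held 21.4% of the pair's sum in CON, 9.26% at 9 hpi and 9.88% at 18 hpi.

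The channel gene timm23 on chromosome 12 was at 17, 10.2 and 9.92 FPKM (log2 differences -0.73 and -0.77), lower at both times. A further feature with the symbol timm23, on chromosome 13, was listed at 0 in CON and was at 0.489 FPKM in H9 and 0.826 in H18. Its identifier belongs to timm23b in RefSeq, and its span overlaps that of LOC561377. The receptor gene timm50 was lower at 18 hpi only, at 5.89, 6.15 and 3.48 FPKM (log2 differences 0.06 and -0.74).

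In contrast, timm44, whose product ties the matrix Hsp70 motor to the channel, was higher at both times. It was at 3.53 FPKM in CON, 6.56 at 9 hpi and 6.23 at 18 hpi (log2 differences 0.88 and 0.80). The gene of the TIM22 channel for carrier proteins, timm22 (chr5:62304442-62310000), was higher at 9 hpi only, at 2.35, 6.33 and 3.09 FPKM (log2 differences 1.39 and 0.38).

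Of the 6 small TIM chaperone genes, 1 was higher and none lower in H9 (16.7% higher, beside 35.0% higher and 31.4% lower of all features). In H18 none was higher and 3 were lower (50% lower, beside 32.8% higher and 34.7% lower). The gene timm10b, whose product docks chaperones at TIM22, was at 0.930 FPKM in CON, 2.44 at 9 hpi and 0.975 at 18 hpi. It was the gene counted as higher in H9, and it averaged at least 1 FPKM mainly through that value. Like timm22, it was past 1.5-fold in H9 against CON and again, in the other direction, in H18 against H9 (log2 differences of H18 from H9 -1.24 and -1.01). The partners timm9 (8.23, 6.64 and 10.4 FPKM) and timm10 (6.14, 7.77 and 6.98 FPKM) lay within 1.5-fold of CON at both times. Only timm9 was higher in H18 than in H9, by a log2 difference of 0.64. With a pseudocount of 1 FPKM that difference was 0.58, within 1.5-fold. Relative to the shift of all features, dnm1l (0.70) and tfam (0.61) were higher in H18 too.

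The partners timm8a (5.33, 3.82 and 2.58 FPKM) and timm13 (11.3, 9.03 and 6.29 FPKM) were lower at 18 hpi only, with log2 differences in H18 of -1.02 and -0.84. So was timm8b, at 22.0, 21.4 and 13.7 FPKM (-0.68 in H18). Over all 23 counted import genes, 7 were higher and 5 lower in H9 (30.4% and 21.7%, beside 35.0% and 31.4% of all features), and 3 were higher and 10 lower in H18 (13% and 43.5%, beside 32.8% and 34.7%).

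Import genes outside the symbol rule, from a list of 27 symbols of motor partners, chaperones and peptidases, numbered 20 at an average of at least 1 FPKM. Of these, 4 were higher and 5 lower in H9 (20% and 25%, both under the shares of all features), and 2 were higher and 9 lower in H18 (10% and 45%, beside 32.8% and 34.7%). The motor cochaperone gene dnajc19 was at 28.3, 8.40 and 8.80 FPKM and the inner membrane peptidase gene immp2l at 3.16, 1.36 and 1.38 FPKM. Opposite in direction was hspd1, which encodes the matrix chaperonin Hsp60, at 9.57, 47.7 and 39.7 FPKM. The metaxin gene mtx1b, a SAM partner, was at 1.101, 3.02 and 1.44 FPKM.

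**Figure D4:**
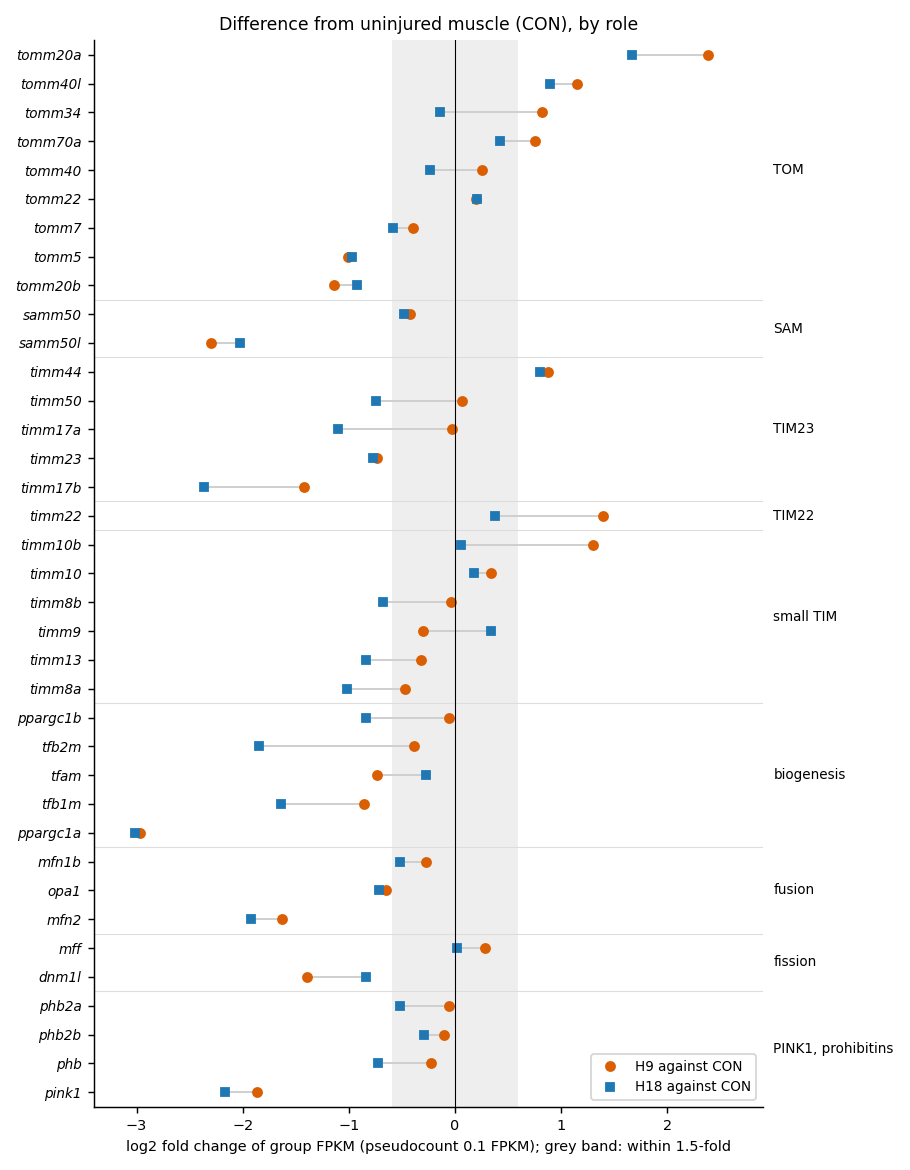
Log2 differences of H9 (circles) and H18 (squares) from CON for the 37 genes, ordered by role, on the scale of FPKM plus 0.1. The grey band spans 1.5-fold in either direction. Symbols right of the band at both times are tomm20a, tomm40l and timm44, and those farthest left at either time are ppargc1a, timm17b, samm50l and pink1.

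Among the genes of fusion and fission, 3 of 5 were lower at each time and none was higher, where 31.4% of all features were lower in H9 and 34.7% in H18. Their summed FPKM was 55.5 in CON, 27.0 at 9 hpi and 28.8 at 18 hpi. The mitofusin gene mfn2 (chr8:47908742-47959912), which joins outer membranes, was at 14.7 FPKM in CON, 4.69 at 9 hpi and 3.81 at 18 hpi (log2 differences -1.63 and -1.92). The related mfn1b stayed within 1.5-fold, at 6.14, 5.08 and 4.25 FPKM, and held 29.5% of the pair's sum in CON, 52.0% at 9 hpi and 52.7% at 18 hpi.

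The inner membrane fusion gene opa1 was at 8.81, 5.58 and 5.32 FPKM, with log2 differences of -0.65 and -0.72. With a pseudocount of 1 FPKM the difference in H9 was -0.58, within 1.5-fold. The fission GTPase gene dnm1l (chr25:20131919-20160993), whose product constricts mitochondria, was at 23.7 FPKM in CON, 8.96 at 9 hpi and 13.2 at 18 hpi (log2 differences -1.39 and -0.84). In H18 it lay above H9 by a log2 difference of 0.55, within 1.5-fold, but 0.70 and past it relative to the shift of all features. Its outer membrane receptor gene mff was at 2.205, 2.70 and 2.24 FPKM, within 1.5-fold throughout.

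The kinase gene pink1 (chr23:37364193-37376077), whose product marks damaged mitochondria for removal, was at 22.7 FPKM in CON, 6.15 at 9 hpi and 4.99 at 18 hpi. Its log2 differences were -1.87 and -2.16, and its FPKM in CON was 3.69 times that in H9 and 4.55 times that in H18. Prohibitins, which form ring scaffolds in the inner membrane, stood nearer to CON. At 9 hpi all 3 lay within 1.5-fold, with phb at 40.8, 34.9 and 24.6 FPKM, phb2a at 16.2, 15.6 and 11.3 FPKM, and phb2b at 15.4, 14.3 and 12.6 FPKM.

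Of the prohibitin genes only phb was lower in H18 (log2 difference -0.73). The span of phb overlaps that of mvp, which was at 7.60, 52.8 and 31.9 FPKM. The share of phb2a in the sum with phb2b was 51.3% in CON, 52.1% at 9 hpi and 47.3% at 18 hpi.

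Companion genes of dynamics, cristae and mitophagy were mostly lower. From a list of 61 symbols, 42 were found and 37 averaged at least 1 FPKM. Of these, 2 were higher and 23 lower in H9 (5.41% and 62.2%, beside 35.0% and 31.4% of all features). In H18, 1 was higher and 26 were lower (2.7% and 70.3%, beside 32.8% and 34.7%). The median log2 differences were -0.84 and -1.003, beside 0.09 and -0.01 over all features. The cristae genes apooa (33.7, 6.68 and 4.44 FPKM) and apoob (2.58, 0.385 and 0.404 FPKM) were lowest relative to CON in H9. However, apoob averaged at least 1 FPKM only through its value in CON, the group where it was highest. The same held for parla, at 5.22, 1.08 and 0.817 FPKM, which is also counted among those lower. Higher in H9 were trak2, which encodes an adaptor for transport along microtubules, at 4.61, 9.17 and 4.65 FPKM, and stoml2, a relative of the prohibitins, at 4.65, 9.17 and 8.23 FPKM.

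Other nuclear genes of the mitochondrion give a scale for these counts. Of 44 complex I genes, 0 were higher and 42 lower in H9 (median log2 difference -2.01), and 0 were higher and 41 lower in H18 (-1.99). Of 48 genes of complexes II to V, 0 were higher and 44 lower in H9 (-1.98), and 2 were higher and 45 lower in H18 (-1.85). The 69 genes of the mitochondrial ribosome lay nearer to the genes described here. Of these, 3 were higher and 27 lower in H9 (4.35% and 39.1%, median -0.37), and 4 were higher and 28 lower in H18 (5.8% and 40.6%, median -0.51). Lower shares were 95.5% and 93.2% for complex I and 91.7% and 93.8% for complexes II to V. Among all features, 35.0% were higher and 31.4% lower in H9, and 32.8% and 34.7% in H18. No test of the difference between these lists was run, so the counts stand side by side as a description.

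**Figure D5:**
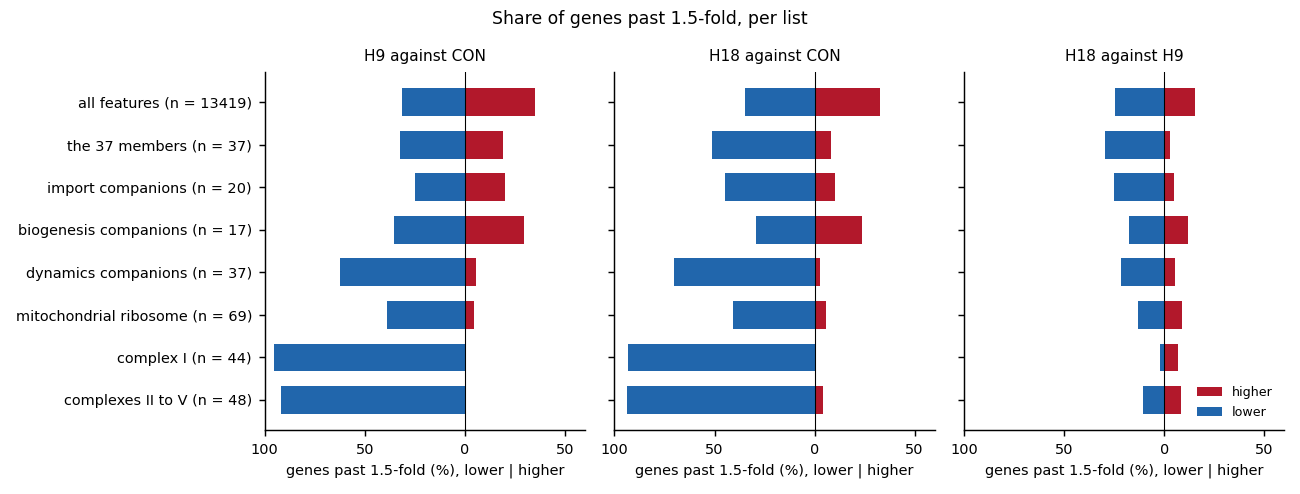
Share of genes (%), among those averaging at least 1 FPKM, that were past 1.5-fold lower (left of 0) or higher (right of 0), per list, in the 3 comparisons, with n per list. In H9 against CON the bar for the 37 genes reaches 32.4% lower and 18.9% higher, beside 31.4% and 35.0% for all features, whereas the complex I bar reaches 95.5% lower.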

How the data were processed

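RNA-seq libraries of CON (4), H9 (5) and H18 (5) LR muscle were compared. The authors aligned reads to GRCz10 with TopHat2 2.0.13 and Bowtie2 2.2.1 and ran Cuffdiff 2.2.1 with upper-quartile and compatible-hits normalization and multi-read correction, and deposited 1 FPKM value per feature and group. The effect of reads shared by paralogs or overlapping features on these FPKM was not tested. Log2(FPKM + 0.1) differences were computed here for features averaging at least 1 FPKM over the groups, and a threshold of 1.5-fold was used, and 51 features without a symbol were left out. The 14 per-sample columns of a count table matched no label and were not used, so the planned count test between libraries was not run. Columns of the authors' fold changes, p-values and q-values were not used. Identifiers of all 38 features were matched to a RefSeq gene table of another assembly, for names and for the chromosome number of each sequence accession. Start positions are counted from 1.

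The members and lists were chosen with earlier results of these data known. Named are 27 symbols set by role, the 3 largest differences in each direction per comparison, and in each companion list the 2 largest in each direction in H9 against CON. Other genes are named to account for every member or to give a limit of a count, or are said to have been added. Of the 27 symbols, fis1 and phb2 were on no feature. Alternatives were a fold threshold of 2, pseudocounts of 1 and 0.01 FPKM, no filter, an average of at least 5 FPKM and centring. The calls were run on simulated group values with known fold changes and no noise, which checks the arithmetic and not the rate of errors. Python 3.11.15, numpy 2.4.6, pandas 2.3.3 and matplotlib 3.10.9 were used.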

Additional observations from a re-analysis of the deposited data

How the results depend on the processing

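No median of the 37 genes changed sign under the alternatives run, and companion genes were not rerun. The sign of a single difference past 1.5-fold could not have changed. Thresholds, filters and pseudocounts leave the sign of a gene as it is. The shifts used in centring (0.09, -0.01 and -0.15) were too small to reverse such a difference. With a fold threshold of 2, 12 of the 37 genes were past it in H9 against CON (4 higher). In H18 against CON 10 were past it (1 higher and 9 lower), and in H18 against H9 4 (0 higher and 4 lower). The shares of all features under the alternatives are not given here, so these counts cannot be set against them. A pseudocount of 1 FPKM left 0 genes higher in H18 than in H9, and no filter gave 2. With a mean of at least 5 FPKM, 28 genes were counted. Of these, 4 were higher in H9 than in CON, and 6 were past the threshold in H18 against H9, 5 of them lower. Centring on all features gave 3 genes higher in H18 than in H9 and a median of -0.15. Of the 111 log2 differences of the 37 genes, 5 changed side of 1.5-fold with a pseudocount of 1 FPKM (opa1 and tfam in H9, ppargc1b, timm9 and tfb1m in H18 against H9), 0 with 0.01 FPKM and 4 with centring (tomm20a, dnm1l, timm8b and tfam in H18 against H9). Without the 6 features that overlap another, an alternative added after seeing the data, 32 genes were counted. Of these, 6 were higher and 10 lower in H9, and 2 higher and 16 lower in H18.

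The labels number the replicates within each group, but neither these numbers nor the paper link a library to one of another group. The paper's gene set comparisons between time points were unpaired. No paired analysis was possible because the columns of the count table carry no replicate number of the labels and matched no library. Leaving out a library, other normalizations, a count filter and a count model were not run for the same reason. Differences near the threshold, and those of genes near 1 FPKM such as timm10b, have no error attached.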

Other observations

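A further 6 features lie outside the symbol rule because their deposited symbols are older, but carry names of this machinery in RefSeq under the same identifier. They were chosen after their values were seen, and 4 of them had a mean of at least 1 FPKM. The fission adaptor gene fis1 was at 8.61 FPKM in CON, 8.54 at 9 hpi and 6.35 at 18 hpi, within 1.5-fold of CON, as mff was. The feature now named timm21, which encodes a TIM23 subunit, was at 5.41, 0.746 and 1.097 FPKM, a log2 difference of -2.70 in H9. However, timm21 averaged at least 1 FPKM only through its value in CON, the group where it was highest. Higher in H9 than in CON were tomm6, a small TOM subunit gene, at 13.2, 29.3 and 18.7 FPKM, and timm29, a TIM22 subunit gene, at 3.95, 7.70 and 6.96 FPKM. With low values, mffb was at 1.005, 0.249 and 0.152 FPKM and mfn1a at 0.136, 0.412 and 0.0994 FPKM.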
